A study of Mus musculus with 14 samples.

Results

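Myoepithelial cells form the contractile basal layer around the milk-producing alveoli of the mammary gland. Suckling releases oxytocin from the pituitary. The hormone binds its receptor on these cells, calcium rises, myosin light chain kinase phosphorylates myosin, and the cells shorten and push milk into the ducts. The cells combine a smooth muscle program (actin, myosin and their partners) with a basal epithelial program (keratins of stratified epithelia and the transcription factor p63).

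The 10 genes described here were chosen by name as markers of these cells and of milk ejection. They are 5 contractile genes (*Acta2*, *Myh11*, *Mylk*, *Cnn1* and *Tagln*), 4 basal epithelial genes (*Krt5*, *Krt14*, *Krt17* and *Trp63*) and the oxytocin receptor gene *Oxtr*, out of 20515 genes with a usable symbol. All 10 are listed in both RNA-seq files. The study joined the *Wap* enhancers, with or without the *Wap* promoter, to the neighboring *Tbrg4* gene, and its 14 samples are 12 ChIP-seq libraries, not analysed here, and 2 total RNA-seq libraries. Both RNA-seq libraries have the genotype WT_wTbrg4: the mice carry 1 wild-type allele and 1 allele in which a Cas9 deletion fused the start of *Wap*, with its enhancers and promoter, to *Tbrg4*. They were derived from C57BL/6 zygotes. Whole mammary tissue was taken on day 10 of lactation (L10). The age of the mice and whether a library holds more than 1 animal are not given, and each replicate is called a mouse below. No RNA-seq of another genotype was analysed here, so the values describe this genotype and no test between groups was possible. The 2 mice are compared as 1 against 1, by the size of the difference and its place among all genes.

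The values are exon and intron FPKM (fragments scaled to gene length and to a factor for each library), which allow levels to be compared between genes. FPKM values of short genes fell on steps, from which 1 read was estimated to be worth 0.101 FPKM x kb in replicate 1 and 0.198 in replicate 2. The exon values then correspond to about 11.9 and 11.3 M reads (M, 1000000), while the steps match scaling to 9.9 and 5.1 M reads. The deposited scaling thus did not follow the number of exon reads, and ratios between the mice depend on it. The 7 milk protein genes, markers of lactating tissue, summed to 560350 and 1508540 FPKM, and 5 of them were more than 2-fold higher in the second mouse. Across 9839 genes, which are not independent replicates, exon GC content and the log2 ratio of replicate 2 to replicate 1 had a Spearman rho of -0.66, with GC-rich genes lower in replicate 2. This bears on each difference between the mice given below. In whole tissue, fewer cells of a type and less RNA per cell cannot be told apart.

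Of the 10 genes, 9 were measured in both mice and 1, *Acta2*, was listed at 0. The contractile genes were the most abundant, with a summed exon FPKM of 202.8 in replicate 1 and 148.5 in replicate 2. *Oxtr* had 18.9 and 23.6. The 4 basal epithelial genes together had 36.5 and 13.7, more than *Oxtr* in replicate 1 and less in replicate 2, so that the sum of this group differed 2.66-fold between the mice, compared with 1.37-fold for the contractile genes. The plot of exon FPKM by gene shows both mice side by side.

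**Figure D1:**
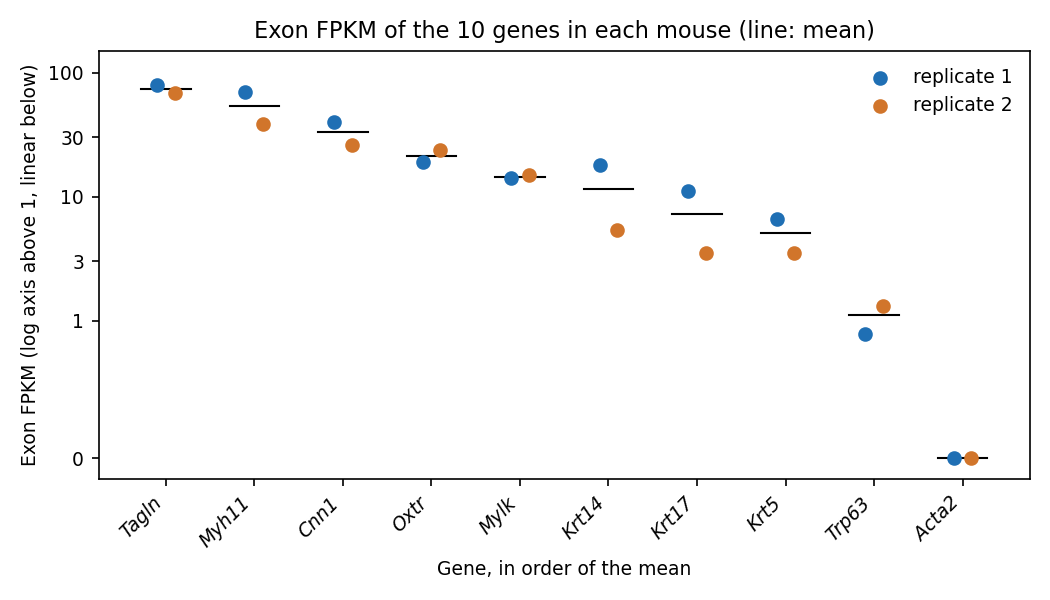
Exon FPKM (y axis, logarithmic above 1 and linear below) of each of the 10 genes (x axis) in replicate 1 (blue) and replicate 2 (orange), with a line at the mean. *Tagln* and *Myh11* are the highest in both mice, *Krt14* and *Krt17* are spread most widely between the mice on this axis, and *Acta2* lies at 0 in both.

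*Acta2* encodes smooth muscle alpha actin, the actin by which myoepithelial cells are usually recognized. The gene has 9 exons and occupies chr19:34240336-34255373 (GRCm38, minus strand). Both its exon FPKM and its intron FPKM were 0 in each mouse. Genes that all cells use were also listed near 0, among them *Gapdh* at 0.1 and 0.3 and the cytoplasmic actin gene *Actg1* at 0.4 and 0.2, both named after their values were seen. *Acta2* is therefore reported as listed at 0, with no statement on its expression. Among all 20515 genes, 6190 had an exon FPKM of 0 in both mice.

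Near-identical copies of a gene can take its reads. Of all 31-base windows in the *Gapdh* exons, 81.2% occurred elsewhere in the genome, and 99% of those in *Actg1* did. For *Acta2* this share was 1.52%. The coding sequence of *Acta2* was 85.4% identical to that of the skeletal muscle actin gene *Acta1*, 84.4% to that of the enteric smooth muscle actin gene *Actg2*, 83.2% to that of *Actb* and 82.5% to that of *Actc1*. *Actg2* had an exon FPKM of 8.7 and 9.4, and *Actb* had 502.1 and 404.8. The neighbors of *Acta2* on either side, *Stambpl1* and *Fas*, were measured at 6.1 and 4.3 and at 4.6 and 6.3, and were named after their values were seen. Why *Acta2* is at 0 was not tested. The 60 coding bases below, from within 1 exon, are those in which the 5 actin genes differ least. Capitals mark bases that differ from *Acta2*, at GRCm38 chr19:34241721-34241780 (minus strand).

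Acta2: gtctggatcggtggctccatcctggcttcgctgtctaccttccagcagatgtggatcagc
Actg2: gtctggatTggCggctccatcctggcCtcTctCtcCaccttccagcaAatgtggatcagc
Acta1: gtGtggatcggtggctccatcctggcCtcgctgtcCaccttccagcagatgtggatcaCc
Actc1: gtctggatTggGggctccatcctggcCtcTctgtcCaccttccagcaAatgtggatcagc
Actb: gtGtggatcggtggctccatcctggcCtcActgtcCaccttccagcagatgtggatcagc

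*Tagln* encodes transgelin (SM22), an actin-binding protein of smooth muscle, and had the highest level of the 10 genes. It occupies chr9:45929628-45936058 (minus strand). Replicate 1 had 79.5 exon FPKM and replicate 2 had 68.6. The mean was 74 ± 7.71 (SD, n = 2), and 98.5% of all genes were below this mean. In RefSeq models, 1361 bases of its exons overlap exons of *Pcsk7* on the opposite strand, which had an FPKM of 18.8 and 13.8. The curated exons of *Tagln* hold 1586 bases, so the overlap may cover most of them. The library kit keeps the strand. Whether the reads were counted by strand is not given in the sources used here, so reads of the overlap could be lost or shared. The level and rank of *Tagln* are uncertain for this reason.

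*Myh11* encodes the smooth muscle myosin heavy chain, the motor of contraction. It has 42 exons over chr16:14194527-14291408 (minus strand). Replicate 1 had 69.2 exon FPKM and replicate 2 had 38.8, with a mean of 54 ± 21.5 (SD, n = 2). *Myh11* was below *Tagln* in each mouse, but the value of replicate 1 exceeded the *Tagln* value of replicate 2, so the ranges of these genes overlapped. *Cnn1*, the gene of calponin, a regulator of smooth muscle contraction, lies at chr9:22099253-22109221 (plus strand). Its transcripts reached 40.1 and 26.2 exon FPKM, with a mean of 33.1 ± 9.83 (SD, n = 2), which made *Cnn1* the third of the 10 genes in both mice.

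*Mylk* encodes myosin light chain kinase, the enzyme that couples calcium to contraction. It extends over chr16:34784950-35002434 (plus strand) with 209676 bp of introns. The mice had 14.0 and 14.9 exon FPKM, with a mean of 14.4 ± 0.636 (SD, n = 2). The values of the mice were closest to each other for this gene among the 9 measured genes as deposited, with a 1.06-fold difference.

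*Oxtr*, the receptor through which oxytocin starts milk ejection, occupies chr6:112473683-112489825 (minus strand). Replicate 1 had 18.9 exon FPKM and replicate 2 had 23.6. The mean, 21.2 ± 3.32 (SD, n = 2), was above 93.2% of all genes. These values correspond to about 860 and 548 reads. *Oxtr* was the fourth of the 10 genes in both mice. Its range did not overlap with that of *Cnn1* above or *Mylk* below it.

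The basal keratin genes were lower. *Krt14*, the type I keratin of basal cells, had 17.9 exon FPKM in the first mouse and 5.4 in the second, with a mean of 11.6 ± 8.84 (SD, n = 2). *Krt5*, its type II partner in the filament, had 6.6 and 3.5, with a mean of 5.05 ± 2.19 (SD, n = 2). *Krt17*, a type I keratin found in myoepithelium, had 11.1 and 3.5, with a mean of 7.3 ± 5.37 (SD, n = 2). *Krt14* occupies chr11:100203162-100207510, *Krt17* chr11:100256215-100261029 and *Krt5* chr15:101707069-101712905, all on the minus strand. All 3 were higher in replicate 1, and the ranges of *Krt14* and *Mylk*, of *Krt17* and *Krt14* and of *Krt5* and *Krt17* overlapped. *Trp63*, which encodes the basal transcription factor p63, had the lowest measured level, with 0.9 and 1.3 and a mean of 1.1 ± 0.283 (SD, n = 2). These values stand for about 54 and 40 reads on 6056 bp of exons at chr16:25683765-25892088 (plus strand). Its range did not overlap with that of *Krt5*. Of the 9 pairs of neighbors in the order of all 10 genes, 5 had overlapping ranges.

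The keratin genes are members of a family with near-identical stretches, and their levels are uncertain for this reason. Of the 31-base windows in their exons, 33.2% for *Krt14*, 17.5% for *Krt17* and 12.6% for *Krt5* occurred elsewhere in the genome, compared with 0.0359% for *Trp63*, 1.13% for *Oxtr* and from 0 to 1.52% for the 5 contractile genes. How reads with several places were treated is not given in the sources used here. *Krt14* was 86.5% identical in coding sequence to *Krt16* and 84.1% to *Krt17*, and *Krt5* was 81.9% identical to *Krt6a*. *Krt16* and *Krt6a* were listed at 0 in both mice, and 55.5% and 53.4% of their windows occurred elsewhere. Their zeros are therefore given with no statement on expression. The 60 coding bases in which *Krt14*, *Krt17* and *Krt16* differ least lie within 1 exon, for *Krt14* at GRCm38 chr11:100207027-100207086 (minus strand). They show how alike the genes can be. A capital marks a base that differs from *Krt14*.

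Krt14: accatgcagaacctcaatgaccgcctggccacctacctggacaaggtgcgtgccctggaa
Krt17: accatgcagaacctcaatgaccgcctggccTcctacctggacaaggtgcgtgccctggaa
Krt16: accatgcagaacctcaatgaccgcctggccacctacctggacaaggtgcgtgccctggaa

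Reads in introns come largely from unspliced RNA. The intron FPKM of the 10 genes was low, from 0 to 0.9 in either mouse, and the deposited values carry 1 decimal. *Myh11* had 0.9 in replicate 1 and 0.7 in replicate 2, *Oxtr* had 0.8 and 0.5, and *Tagln* had 0.7 in each. The contractile genes measured had little intron signal for their exon signal. The mean intron FPKM was 1.48% of the mean exon FPKM for *Myh11*, 0.945% for *Tagln*, 0.905% for *Cnn1* and 0.692% for *Mylk*, compared with a median of 6.27% over 9838 genes. These 4 shares lay between the 4.8th and the 9.18th percentile of all genes. *Krt14* had the lowest share of the 9 genes, 0.429%. *Oxtr* had 3.06%, *Krt17* 4.11%, *Trp63* 4.55% and *Krt5* 6.93%. Of the 9 genes, 8 were below the median of all genes, and *Krt5* was above it. By mouse, *Krt5* had 4.55% in replicate 1 and 11.4% in replicate 2, and *Trp63* 0% and 7.69%. The shares of both thus lay on either side of 6.27%. For *Trp63* and *Krt14* the intron FPKM was 0 in 1 of the mice and 0.1 in the other, so that their shares rest on the last decimal. *Mylk*, at 0.1 in each mouse, and *Cnn1*, at 0.3 in each, are also coarse for this reason.

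The mice were then compared gene by gene as the log2 ratio of FPKM + 1, replicate 2 over replicate 1, among the 9845 genes whose exon FPKM averaged 1 or more. This included 9 of the 10 genes. *Krt14* had a log2 ratio of -1.56, from 17.9 to 5.4 FPKM, and *Krt17* of -1.43, from 11.1 to 3.5 FPKM. These 2 genes were more than 2-fold lower in replicate 2, as were 4.82% of all genes. None of the 9 genes was more than 2-fold higher in replicate 2, as were 1.08% of all genes. At 1.5-fold, 5 of the 9 genes were lower and 0 higher, beside 16.7% and 6.94% of all genes. Of the 6 genes with an average of 10 FPKM or more, 1 (*Krt14*) was more than 2-fold lower and 0 higher, beside 5.75% and 1.67% of all genes above that level. The values of about 305 and 47 reads for *Krt14* give a log2 ratio without pseudocount of -1.73 with a 95% exact binomial interval of -2.20 to -1.28, and about 171 and 28 reads for *Krt17* give -1.67 with -2.27 to -1.06. These intervals cover counting error alone and not the spread between mice. *Krt5*, with 6.6 and 3.5 FPKM, had a log2 ratio of -0.76.

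*Myh11* had a log2 ratio of -0.82, *Cnn1* of -0.60 and *Tagln* of -0.21. *Mylk* had 0.08, *Trp63* 0.28 and *Oxtr* 0.31. The median of all genes was -0.08, with the middle 50% from -0.43 to 0.23. *Tagln* and *Mylk* lay within this range. The ratios of the keratin genes, *Myh11* and *Cnn1* lay below it, and those of *Trp63* and *Oxtr* above it. For *Trp63* the counting interval of the log2 ratio without pseudocount, from -0.09 to 1.15, included 0. For *Oxtr* it ran from 0.16 to 0.48. The sign of these ratios depended on the scaling. When both mice were set to the same summed exon FPKM, an alternative chosen after the data were seen, the median of the same 9845 genes fell to -0.95, and 46.6% of them were more than 2-fold lower in replicate 2 (0.0711% were higher). All 9 genes then had a ratio below 0, and 6 were more than 2-fold lower. *Oxtr* became -0.72, *Mylk* -0.92 and *Trp63* -0.29, which turned their direction, although all 3 still lay above the median of all genes.

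GC content differed among the 10 genes along with these ratios. The exons of *Krt17* had 58.8% GC, of *Krt14* 57.1% and of *Krt5* 57.0%, those of the 4 measured contractile genes 52.8% to 53.6%, of *Oxtr* 51.7% and of *Trp63* 44.6%. Over the 9 genes, GC content and log2 ratio had a Spearman rho of -0.83, where the points share 2 libraries. Among the 2377 genes with a GC content over 55%, the median log2 ratio was -0.58, the middle 50% ran from -0.88 to -0.29, and 17.1% were more than 2-fold lower in replicate 2. *Krt5* lay within this middle range, and *Krt14* and *Krt17* lay below it. Among the 2653 genes with 50 to 55% GC, the median was -0.20 and the middle 50% ran from -0.46 to 0.06. *Tagln* lay within that range, *Myh11* and *Cnn1* below it, and *Mylk* and *Oxtr* above it. Among the 2220 genes with under 45% GC, the median was 0.29 and the middle 50% ran from 0.09 to 0.51. *Trp63*, at 0.28, lay within this range.

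**Figure D2:**
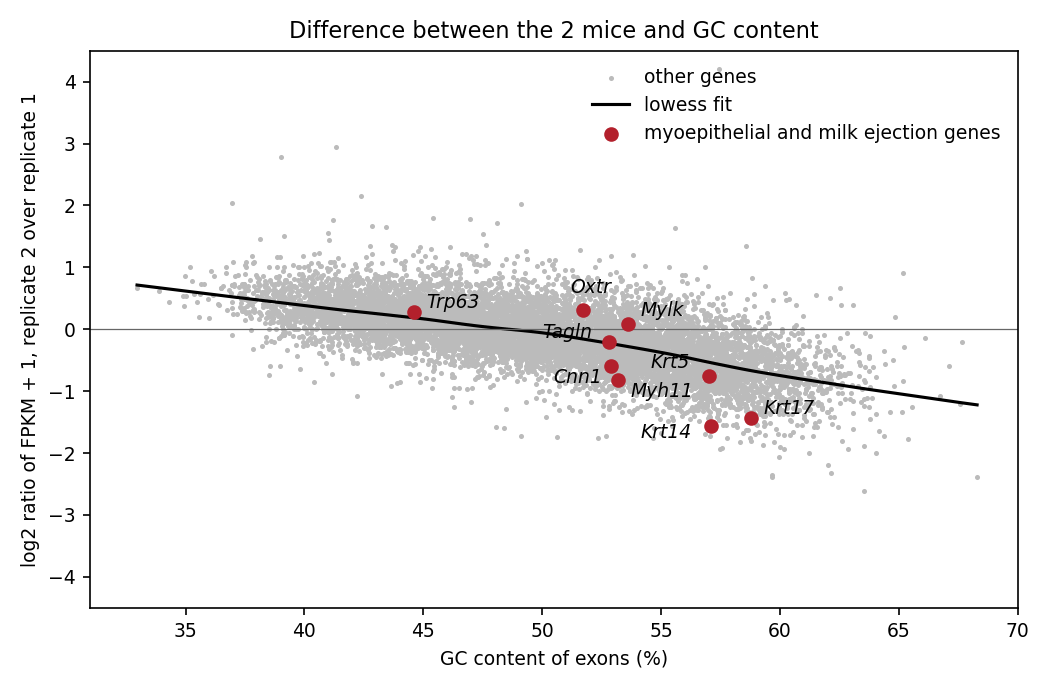
Log2 ratio of exon FPKM + 1, replicate 2 over replicate 1 (y axis), against the GC content of the exons in percent (x axis), for 9839 genes (gray), of which the 9 measured genes are in red, with a lowess fit (black). The fit falls with GC content, and *Krt14* at -1.56 and *Krt17* at -1.43 lie below it while *Oxtr* at 0.31 and *Mylk* at 0.08 lie above it.

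When the lowess fit was removed, the log2 ratio of *Krt14* became -1.02, of *Krt17* -0.76 and of *Krt5* -0.23. *Krt14* alone of the 9 genes stayed more than 2-fold lower in replicate 2, just past the limit, as did 0.793% of all genes. *Myh11* became -0.57, *Cnn1* -0.36 and *Tagln* 0.01. *Oxtr* became 0.46, *Mylk* 0.36 and *Trp63* 0.09. Before the correction 6 of the 9 ratios were below 0, and after it 5 were. The part of GC content in the difference of a single gene was not tested beyond this fit.

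**Figure D3:**
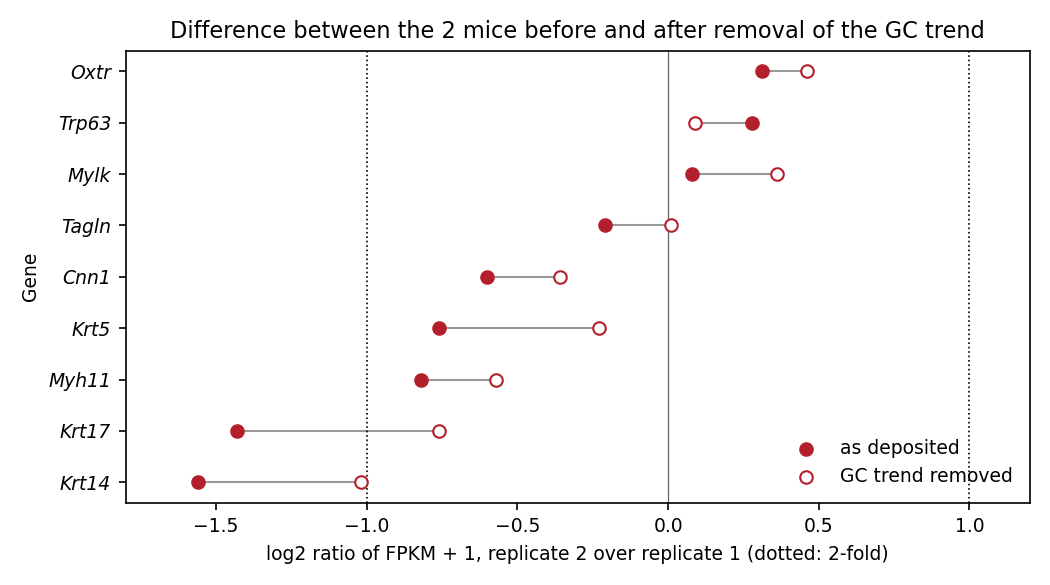
Log2 ratio of exon FPKM + 1, replicate 2 over replicate 1 (x axis), of the 9 measured genes (y axis) as deposited (filled) and after the GC trend was removed (open), with dotted lines at 2-fold. *Krt14* moves from -1.56 to -1.02, *Krt17* from -1.43 to -0.76 and *Krt5* from -0.76 to -0.23.

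Other genes used by the smooth muscle apparatus also had signal. As the tissue is mixed, their sum is not assigned to a cell type. Of a list of 19, 18 were above 0 and 17 reached a mean of 1 FPKM, with a summed exon FPKM of 275 in replicate 1 and 195 in replicate 2. *Myl9*, the regulatory myosin light chain that *Mylk* phosphorylates, had 76.0 and 58.8 FPKM. *Flna*, encoding the actin crosslinker filamin A, had 51.7 and 34.3. The tropomyosin genes *Tpm2* and *Tpm1* had 39.0 and 16.3 and 26.1 and 21.0. *Srf*, the factor that drives smooth muscle genes through CArG boxes, had 4.8 and 2.3, and its cofactor *Myocd* was listed at 0 in both mice. *Srf* and *Myocd* were named after their values were seen. The median log2 ratio of the list was -0.37, and -0.06 with the GC trend removed. Of the 17 genes, 1 (*Tpm2*) was more than 2-fold lower in replicate 2 and none was higher, beside 4.82% and 1.08% of all genes. With the GC trend removed *Tpm2* was at -0.95, within 2-fold.

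These contractile genes are also made by vascular smooth muscle, and the files do not separate the sources. The 10 pericyte and vascular smooth muscle markers were all above 0, with a summed exon FPKM of 61.3 in replicate 1 and 64.1 in replicate 2. *Rgs5*, at 22.8 and 37.8, led this sum and had a log2 ratio of 0.71. The median log2 ratio of the 9 markers with a mean of at least 1 FPKM was -0.25, and -0.03 with the GC trend removed. *Notch3* (-1.25) was more than 2-fold lower in replicate 2, as were 4.82% of all genes. With the GC trend removed *Notch3* was at -0.52, within 2-fold. Markers of skeletal muscle, which can lie against the gland, were low but all 7 were above 0, with a sum of 31 in replicate 1 and 13.7 in replicate 2. The sum of this list was thus 2.26-fold higher in replicate 1. With the GC trend removed, the median log2 ratio of its 5 genes with a mean of at least 1 FPKM was -0.63. Of these 5 genes, 2 were more than 2-fold lower in replicate 2, and 1 (*Myh4*, at -1.02) with the GC trend removed. The leading genes of the skeletal muscle list were *Acta1* at 8.4 and 3.7 and *Myh4* at 6.1 and 2.0. The part of these cells in the values of the contractile genes was not tested. Sums of other cell markers were 63.5 and 54 for endothelium, 1326 and 1156 for adipocytes, 173 and 166 for fibroblasts and 119 and 78.7 for macrophages.

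Of 29 further basal and myoepithelial genes, 24 were above 0 and 22 reached a mean of 1 FPKM, with sums of 445 in replicate 1 and 472 in replicate 2. Many of them are made by other cells as well. *Sparc*, a matrix protein gene, had 127.9 and 138.5 FPKM, *Perp*, encoding a desmosome protein, 46.6 and 71.4, *Itgb1*, encoding integrin beta 1, 45.8 and 55.4, and *Cav1*, encoding caveolin 1, 33.0 and 50.5. The median log2 ratio was -0.05, and 0.10 with the GC trend removed, beside -1.09 and -0.49 for *Krt5*, *Krt14*, *Krt17* and *Trp63*. The median GC content was 51.8% in this list and 57.0% for these 4 genes. The genes listed at 0 were *Krt16*, *Krt6a*, *Krt6b*, *Col17a1* and *Dsg3*, with no statement on their expression. Of the 22 genes, *Krt15* and *Igfbp2* were more than 2-fold lower in replicate 2, beside 4.82% of all genes. With the GC trend removed, neither was more than 2-fold lower (-0.72 and -0.15).

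*Krt5* and *Krt14* are also the keratins of basal skin. The suprabasal skin genes *Krt1*, *Krt2* and *Ivl* were listed at 0, and the 5 suprabasal genes in the files summed to 0.8 FPKM in each mouse. A listed 0 is no statement on expression here, and the part of skin in the keratin values was not tested. Luminal keratin genes differed between the mice in the same direction as the basal ones, with *Krt18* at 145.0 and 57.6 FPKM and *Krt8* at 31.4 and 14.6. Of the 7 luminal markers with a mean of at least 1 FPKM and a ratio, 3 were more than 2-fold lower in replicate 2, and all 3 were keratin genes. The share was 4.82% over all genes and 17.1% over genes with more than 55% GC. *Krt8* (56.9%), *Krt18* (56.4%) and *Krt19* (57.2%) are such GC-rich genes. With the GC trend removed, none of the 7 was more than 2-fold lower. The luminal markers *Elf5*, with 185.8 and 204.8, and *Epcam*, with 134.0 and 112.0, differed less.

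The genes that carry the signal of *Oxtr* into contraction were nearly all present. Of 26 genes from the G protein to the myosin phosphatase and to regulators of the hormone and receptor, all were above 0 and 24 reached a mean of 1 FPKM. Their sums were 393 in replicate 1 and 404 in replicate 2, and the median log2 ratio was -0.05. *Ppp1cb*, the catalytic subunit of myosin phosphatase, which opposes *Mylk*, had 46.9 and 80.0 FPKM. *Calm2*, whose product activates the kinase encoded by *Mylk*, had 30.7 and 40.8. *Orai1*, a calcium channel of the cell membrane, had 42.9 and 29.4. *Gnaq*, the G protein subunit that *Oxtr* engages, had 11.0 and 15.7, and *Lnpep*, the aminopeptidase that degrades oxytocin, had 21.5 and 33.3. *Gnaq* and *Lnpep* were named after their values were seen. Of the 24 genes, 1 (*Calm3*) was more than 2-fold lower in replicate 2 and none was higher, beside 4.82% and 1.08% of all genes. With the GC trend removed *Calm3* was at -0.64, within 2-fold. Most of these genes are active in many cell types, so the values are those of the tissue.

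**Figure D4:**
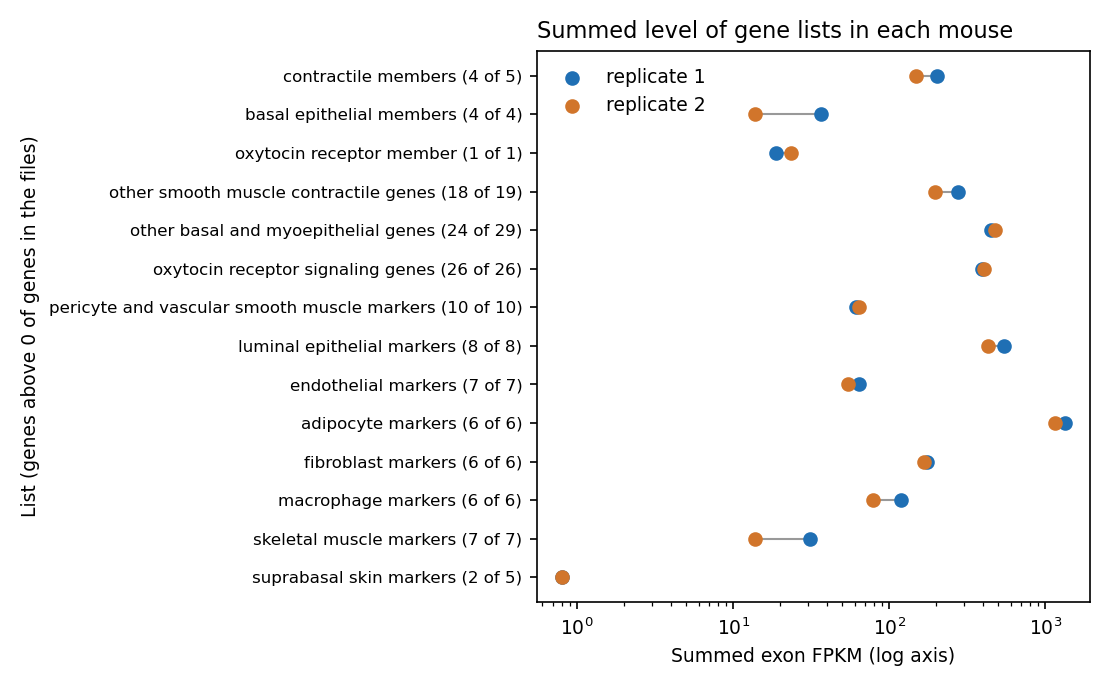
Summed exon FPKM (x axis, logarithmic) of the gene groups and of marker lists of other cells (y axis, with the number of genes above 0 of those in the files) in replicate 1 (blue) and replicate 2 (orange). The basal epithelial genes (36.5 and 13.7) and the skeletal muscle markers (31 and 13.7) lie farthest apart between the mice among the lists drawn, which leave out the milk protein genes.

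RefSeq promoter windows, from 250 bases before to 50 after the start on GRCm38.p6, were matched for 6 of the 10 genes. *Myh11*, *Tagln*, *Krt17* and *Trp63* were not matched. SRF binds CArG boxes. An exact CArG box (CC, 6 letters that are A or T, then GG) was in none of the 6 windows on either strand. It was in 1.63% of all 32851 windows. Allowing 1 letter other than A or T in the center of the box, 9.98% of all windows had a match. Of the 6 genes *Acta2* did, with matches starting 84 and 34 bases before the start. Binding of SRF was not tested, and the lack of an exact match is no statement on it. The STAT5 sequence TTCNNNGAA was in none of the 6 and in 8.3% of all windows. The 100 bases of the *Acta2* promoter that hold both matches lie at chr19:34255378-34255477 (minus strand). They are shown because this gene is the one at 0, and capitals mark the matches.

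Acta2 promoter: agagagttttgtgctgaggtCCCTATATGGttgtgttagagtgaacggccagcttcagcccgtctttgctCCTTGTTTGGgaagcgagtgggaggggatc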

How the data were processed

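Total RNA of mammary tissue on day 10 of lactation was sequenced from 2 WT_wTbrg4 libraries (TruSeq Stranded Total RNA kit, Illumina HiSeq). The authors mapped reads to mm10 with STAR, counted them on collapsed exons of UCSC known genes and on introns with HTSeq, and generated the deposited FPKM with DESeq2, rounded to 1 decimal. The tool versions, the strand setting and the treatment of reads with several places are not given in the sources used here. Of the gene lists, *Cldn3*, *Cldn4*, *Cldn5* and *Flg* were not among the genes listed, and 12 ChIP-seq samples were not analysed here.

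Of 20550 rows, 35 without a usable symbol were left out. Exon and intron lengths and GC content came from curated RefSeq transcripts on GRCm38.p6 and matched 99.7% of the genes. FPKM were used as deposited and are given as mean ± SD over the 2 samples, so that the error is the spread between these samples, which may be technical. Log2 ratios used a pseudocount of 1, which understates the change of low genes, and a mean FPKM of at least 1. A lowess fit over 30% of the genes gave the GC correction. The worth of 1 read was estimated from features with few reads: 84.8% of 46 features in replicate 1 and 87.3% of 236 in replicate 2 came within 0.2 of a whole read. Read numbers are therefore approximate. Windows of 31 bases were searched on all chromosomes and both strands. Coding sequences were aligned globally. This replaced a planned comparison of proteins, for which no table was used. The scaling to equal summed exon FPKM, the window search, the read estimate, the relaxed CArG match and ratios within a mouse were added after values were seen.

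Members and gene lists were chosen with earlier results of these data known. All 10 genes are named, and at most the 4 highest of each other list, and further genes, named in the text for small counts or marked there, were chosen after their values were seen. A single one of the listed genes is not reported here. The 2 samples give no pattern by which to look for similar genes. Other scaling, pseudocounts, filters, fold limits and averages were tried, and values were recalculated with 1 mouse at a time. The versions were Python 3.11.15, statsmodels 0.14.6 for lowess, scipy 1.17.1 for intervals, Biopython 1.88 for alignment, pandas 2.3.3, numpy 2.4.6 and matplotlib 3.10.9.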

Additional observations from a re-analysis of the deposited data

How the results depend on the processing

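No paired analysis was possible because the RNA-seq samples form 1 group. Since either of 2 values lies within 1 SD of their mean, leaving out a mouse says nothing of stability. The summed exon FPKM of the 10 genes was 222, and 185.8 to 258.2 with 1 mouse left out. Their summed intron FPKM was 3.3, and 3.0 to 3.6. The median share of intron in exon FPKM was 1.48%, and 0.881 to 1.8% with 1 mouse left out. The count of 2 genes more than 2-fold apart became 1 with the GC trend removed, 1 under a filter at an average of 10 FPKM, 5 at 1.5-fold and 6 with equal summed exon FPKM, a scaling chosen after the data were seen. The median log2 ratio of -0.60 became -0.23 with the GC trend removed and -1.63 with equal sums. *Tagln* turned from -0.21 to 0.01 with the GC trend removed, and *Oxtr*, *Mylk* and *Trp63* turned from 0.31, 0.08 and 0.28 to -0.72, -0.92 and -0.29 with equal sums, where the median of all genes was -0.95. Of 72 alternatives for single genes that kept both mice, 56 moved the value by no more than the spread (1 SD, or 0.33 for log2 ratios), 12 moved it by more and 4 turned its sign. Part of the 56 could not come out otherwise. The geometric mean of 2 values always lies within 1 SD of their mean, and centring on the median of -0.08 shifts all log2 ratios alike by less than 0.33. The count is therefore no measure of stability. Read numbers for *Trp63*, *Krt17* and *Krt5* in replicate 2, from 28 to 40, limit the precision of these genes.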

Other observations

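Ratios of genes within a mouse were calculated after the values had been seen. *Krt17* had 0.62 times the exon FPKM of *Krt14* in replicate 1 and 0.648 times in replicate 2. *Krt5* had 0.21 and 0.24 times that of the luminal keratin gene *Krt8*, where both have near 57% GC, and *Krt14* had 0.123 and 0.0938 times that of *Krt18*. *Krt14* exceeded its filament partner *Krt5* 2.71-fold and 1.54-fold. Among the contractile genes, *Tagln* exceeded *Myh11* 1.15-fold and 1.77-fold, and *Myh11* exceeded *Mylk* 4.94-fold and 2.6-fold. *Tagln* exceeded *Krt14* 4.44-fold and 12.7-fold, and *Oxtr* exceeded it 1.06-fold and 4.37-fold. The GC content is 57.1% for *Krt14*, against 52.8% for *Tagln* and 51.7% for *Oxtr*, and these ratios were not corrected for the GC trend. Of the *Krt14* windows, 33.2% occurred elsewhere in the genome. Ratios with *Tagln* also carry the limit of its overlap with *Pcsk7*. *Oxtr* exceeded *Trp63* 21-fold and 18.2-fold, although these genes differ in GC content (51.7% and 44.6%).

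*Krt15*, a basal type I keratin gene, had an exon FPKM of 15.5 and 6.6. *Cxcl14*, a chemokine gene, had 29.4 and 31.7. *Piezo1*, encoding a channel opened by stretch, had 38.9 and 26.5. These genes were picked from the lists after their values were seen.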
